A study of Mus musculus with 15 samples.

Results

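The collagen gene family was followed across newborn brown fat and inguinal white fat of wild-type and IL-33 knockout mice. Its members were all protein-coding genes whose symbol has the form Col, number, a, number, and the deposited count table held 44 of them among 37991 gene identifiers. They were sorted by known structure into 11 fibrillar chains, 6 type IV (basement membrane) chains, 6 type VI (beaded filament) chains, 9 FACIT chains, which sit on the surface of fibrils, 4 network-forming or anchoring chains, 2 multiplexins, 4 transmembrane collagens and 2 others. No expression value entered this membership or sorting, but earlier results of these data were known when the genes to describe were chosen.

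Collagens are secreted proteins whose chains wind around each other into a triple helix. The helix depends on hydroxylation and folding of the chains in the endoplasmic reticulum, and fibrils form outside the cell after the end pieces are cut off and the chains are crosslinked. In fat, fibroblasts and adipocyte progenitors are known as the main makers of the fibrillar types I, III and V, while type IV, VI, XV and XVIII chains lie in or next to the basement membranes that wrap each adipocyte and the blood vessels.

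The study sequenced 4 tissue groups, all on a C57BL/6 background. Brown adipose tissue was taken at postnatal day 0.5 from wild-type mice (4 libraries) and from mice labelled IL-33-/- (4 libraries), and inguinal white adipose tissue at postnatal day 24 from wild-type mice (4 libraries) and IL-33-/- mice (3 libraries, numbered 2, 3 and 4). The labels name no Cre driver or cell type for the deletion. The libraries were made from bulk tissue, so that fewer cells of a type and less RNA per cell cannot be told apart. Tissue and age changed together and cannot be told apart either. Whether each library stands for its own animal is not in the labels, and the p-values therefore reflect library-to-library spread that may be technical.

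Total counts ranged from 26059635 to 53923009 per library. The deleted gene Il33 had 3.497 to 4.66 CPM (counts scaled to library size, after normalisation by the trimmed mean of M values, TMM) in wild-type inguinal fat and 0.0799 to 0.470 CPM in knockout inguinal fat. In brown fat the wild-type libraries had 1.73 to 3.17 CPM and the labelled knockout libraries 0.408 to 1.72 CPM, without overlap but with an edgeR adjusted p of 0.229, and the brown group is therefore called the labelled knockout. Brown labelled knockout library 1 stood apart from the rest of its group, and without it the edgeR test called 2905 genes in brown fat instead of 41. Brown labelled knockout library 4 had the epithelial keratin Krt5 at 45.2 CPM, against at most 0.0920 CPM in the other 7 brown libraries. The thermogenic marker Ucp1 ranged from 1540 to 6801 CPM in the brown libraries and from 609 to 2092 CPM in the inguinal ones.

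Sequences are shown in 3 sets, all from RefSeq on mouse build GRCm38.p6. The sets of members hold windows of 250 bases before to 50 bases after the annotated start. The last set holds microRNAs encoded inside Col27a1, a member that was not called in either knockout comparison. The 1st set is the type IV pair, Col4a1 and Col4a2, which lie head to head on chromosome 8 and whose count ratio is described with the results. Capitals mark the 78 bases that both windows share, read from opposite strands; the annotated start sites lie 21 bases apart and the transcripts overlap.
Col4a1, chr8:11312777-11313076, minus strand: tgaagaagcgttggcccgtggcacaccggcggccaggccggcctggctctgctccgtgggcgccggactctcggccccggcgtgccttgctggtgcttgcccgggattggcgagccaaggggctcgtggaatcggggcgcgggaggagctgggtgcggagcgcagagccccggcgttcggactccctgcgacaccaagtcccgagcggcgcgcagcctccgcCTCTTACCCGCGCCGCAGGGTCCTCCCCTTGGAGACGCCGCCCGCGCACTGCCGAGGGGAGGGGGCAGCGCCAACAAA
Col4a2, chr8:11312555-11312854, plus strand: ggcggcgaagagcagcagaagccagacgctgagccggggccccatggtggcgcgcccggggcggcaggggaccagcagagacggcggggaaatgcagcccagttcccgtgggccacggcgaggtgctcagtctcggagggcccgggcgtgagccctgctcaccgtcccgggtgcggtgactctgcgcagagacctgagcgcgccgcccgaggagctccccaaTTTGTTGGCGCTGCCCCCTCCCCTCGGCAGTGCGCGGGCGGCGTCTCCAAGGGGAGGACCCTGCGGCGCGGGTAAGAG

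The 2nd set is the pair of multiplexins, Col15a1 and Col18a1, which moved in opposite directions in knockout inguinal fat. Capitals mark the motifs CCAAT and GGGCGG on either strand. Col15a1 held neither, nor TATAAA, while this Col18a1 window, 1 of 2 listed for the gene, held 1 CCAAT and 3 GGGCGG matches. The other Col18a1 window, not shown, held none of these motifs, like that of Col15a1. Among all 32544 promoter windows of the table, 37.4% held CCAAT, 35.9% held GGGCGG and 13.6% held TATAAA. Windows were found for 35 of the 44 members, 38 windows in all, of which 13 held CCAAT, 23 held GGGCGG and 5 held TATAAA. A match describes these letters only, and binding was not measured.
Col15a1, chr4:47207762-47208061, plus strand: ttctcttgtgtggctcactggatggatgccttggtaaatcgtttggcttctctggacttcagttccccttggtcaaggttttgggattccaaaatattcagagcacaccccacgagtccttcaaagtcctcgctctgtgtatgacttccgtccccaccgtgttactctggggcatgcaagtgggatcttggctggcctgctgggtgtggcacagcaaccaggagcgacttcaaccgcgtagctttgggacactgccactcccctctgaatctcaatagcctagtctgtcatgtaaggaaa
Col18a1, chr10:77166481-77166780, minus strand: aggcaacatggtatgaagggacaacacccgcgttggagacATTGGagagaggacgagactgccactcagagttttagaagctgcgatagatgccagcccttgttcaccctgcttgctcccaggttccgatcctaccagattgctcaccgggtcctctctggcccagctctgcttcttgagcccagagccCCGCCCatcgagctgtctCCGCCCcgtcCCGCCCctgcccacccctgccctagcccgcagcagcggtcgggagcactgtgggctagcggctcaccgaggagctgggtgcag

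The 3rd set is the pair of mature microRNAs encoded inside Col27a1 on chromosome 4, outside its exons and on its strand. Col27a1 spanned 45.1 to 438 CPM over the brown libraries, and its transcript is the host of miR-455, a microRNA known to promote brown adipocyte differentiation. The microRNAs themselves were not measured in these mRNA libraries. Capitals mark the seed, bases 2 to 8.
mmu-miR-455-5p, chr4:63256867-63256888: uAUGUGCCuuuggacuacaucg
mmu-miR-455-3p, chr4:63256904-63256924: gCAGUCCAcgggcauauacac

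Most of the family was expressed. Of 44 members, 34 reached a mean of 1 CPM in at least 1 group, 22 reached 10 CPM and 16 reached 100 CPM. The 10 members under 1 CPM in all 4 groups were Col10a1, Col19a1, Col22a1, Col2a1, Col4a6, Col6a4, Col8a2, Col9a1, Col9a2 and Col9a3, several of them known from cartilage. Counts were concentrated in few genes: Col1a1, Col1a2, Col3a1, Col4a1 and Col4a2 together made up 75.5% ± 0.348 of all collagen counts in wild-type brown fat (SD, n = 4) and 75.6% ± 2.02 in wild-type inguinal fat (SD, n = 4). The split within these 5 differed between the tissues. Types I and III held 49.7% ± 2.70 of collagen counts in wild-type brown fat and 60.03% ± 4.81 in wild-type inguinal fat, while Col4a1 and Col4a2 held 25.7% ± 2.48 and 15.6% ± 3.04 (SD, n = 4 each).

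Levels per kilobase of the principal transcript put different genes on a common scale, but the order depends on the length used. All exons of Col1a2 together hold 12426 bases against 5348 for that transcript, and those of Col4a1 7464 against 6615. On this scale Col3a1 (type III collagen, co-assembled with type I in soft tissues) was highest in each group. It had 358 to 529 CPM per kb in the wild-type brown libraries and 859 to 1216 in the wild-type inguinal libraries. In wild-type brown fat Col4a1 followed at 207 to 229 CPM per kb, then Col1a2 at 135 to 223, with overlapping ranges. Col1a1 (84.4 to 145 CPM per kb), Col4a2 (93.9 to 106) and Col6a1 (77.4 to 102) came next, and their ranges also overlapped. In wild-type inguinal fat the order after Col3a1 was Col1a2 (374 to 637 CPM per kb), Col1a1 (246 to 414), Col4a1 (226 to 285), Col6a1 (146 to 179) and Col4a2 (135 to 169). There, too, each neighbour in the order overlapped the next, except that Col3a1 lay above Col1a2 and Col4a1 above Col6a1 in all libraries.

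**Figure D1:**
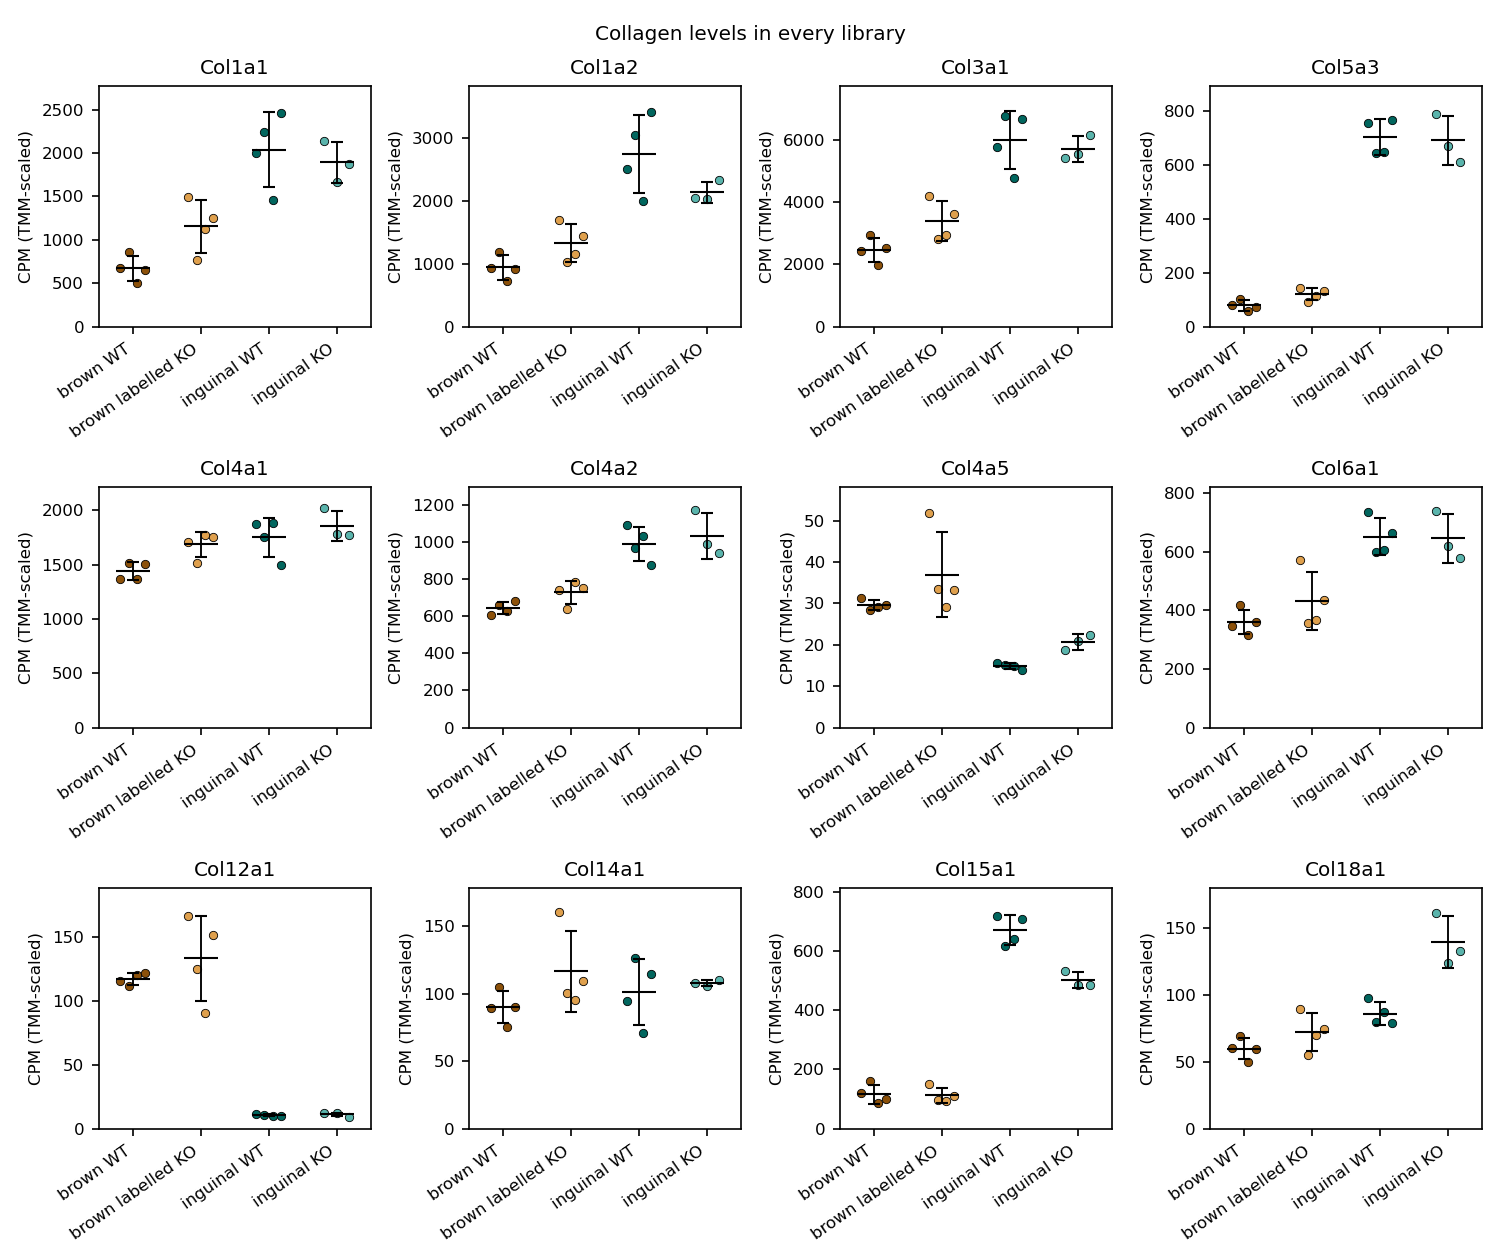
Level (CPM, TMM-scaled, linear axes from 0) of 12 collagen genes in each of the 15 libraries. Points are libraries, bars are group means and SD; Col18a1 is higher and Col15a1 lower in all 3 inguinal knockout libraries than in the 4 inguinal wild-type libraries, while Col5a3, Col15a1 and Col12a1 separate the tissues.

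In inguinal fat, loss of IL-33 went with changes in a minority of collagens, in both directions and spread over the classes. Of 39 members tested, 4 were higher and 7 lower in the knockout (edgeR quasi-likelihood test, Benjamini-Hochberg adjusted p below 0.05 over all genes), against 28.6% of all 15710 genes tested in this comparison. The members' share is close to that background. Their median log2 difference was -0.05, beside -0.02 over all genes tested. The most abundant chains were not among the 11.

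The smallest p among the members was that of Col18a1, the multiplexin whose end piece is released as endostatin. Its levels were 97.1, 79.7, 87.1 and 78.6 CPM in the wild-type libraries and 161, 124 and 133 CPM in the knockout libraries. The groups did not overlap, and the level rose by 0.72 on the log2 scale (SE 0.11, 1.65-fold, edgeR adjusted p = 0.000346). Col15a1, the other multiplexin, known from basement membrane zones of vessels, muscle and fat, moved the opposite way. It had 718, 617, 640 and 709 CPM in wild type and 532, 484 and 487 CPM in the knockout, again without overlap, and fell by 0.40 (SE 0.10, edgeR adjusted p = 0.00673). The count ratio of Col18a1 to Col15a1, which needs no scaling between libraries, was 0.111 to 0.136 in wild type and 0.255 to 0.302 in the knockout. Beside this pair, the summed level of 7 endothelial markers was 937 to 1141 CPM in wild type and 816 to 896 CPM in the knockout, with 4 of 7 markers lower, and its part in the result was not tested.

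In type IV, Col4a5, a chain that assembles with Col4a3 and Col4a4 or with Col4a6, was higher in the knockout. It measured 15.5, 15.2, 15.0 and 13.9 CPM in wild type and 18.7, 20.9 and 22.4 CPM in the knockout, a rise of 0.49 (SE 0.10, edgeR adjusted p = 0.00291). No other type IV chain passed. The ubiquitous chains Col4a1 and Col4a2 had log2 differences of 0.10 (SE 0.11, edgeR adjusted p = 0.524) and 0.08 (SE 0.11, edgeR adjusted p = 0.635). Col4a1 ranged from 1497 to 1887 CPM in wild type and from 1775 to 2019 CPM in the knockout, and the groups overlapped. The count ratio of Col4a1 to Col4a2 was 1.71 to 1.83 in wild type and 1.72 to 1.89 in the knockout.

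In type VI, 1 of 5 chains tested was lower and 1 was higher. Col6a3, whose cleaved end piece is known as endotrophin, an adipocyte-derived peptide, had 680, 658, 584 and 678 CPM in wild type and 539, 505 and 464 CPM in the knockout. It fell by 0.35 (SE 0.10, edgeR adjusted p = 0.0150), and the groups did not overlap. Its partner chain Col6a1 differed by 0.01 (SE 0.11), at 599 to 735 CPM in wild type and 579 to 740 CPM in the knockout. The Col6a3 to Col6a1 count ratio was 0.925 to 1.10 in wild type and 0.728 to 0.814 in the knockout. Col6a6, an alternative to Col6a3 in the type VI trimer, rose by 0.59 (SE 0.16, edgeR adjusted p = 0.0127), from 15.7, 17.2, 10.8 and 16.6 CPM to 26.7, 21.4 and 19.2 CPM. Col6a3 was not called without knockout library 3, nor Col6a6 without knockout library 2, and over the alternatives their adjusted p reached 0.217 and 0.207.

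Among fibrillar chains, 2 of 10 tested were lower and none was higher, beside 13.3% of all genes lower and 15.3% higher. No trend of the class is read from so few calls. Col11a1, a minor chain that is built into the core of thin fibrils, had 3.73, 3.35, 2.98 and 3.17 CPM in wild type and 0.965, 1.24 and 1.996 CPM in the knockout. It fell by 1.20 (SE 0.24, edgeR adjusted p = 0.00221) with no overlap. Col24a1, another minor fibrillar chain, singled out after its values were seen because it lay under 1 CPM, fell by 1.57 (SE 0.42, edgeR adjusted p = 0.0127). It had 0.603 to 1.22 CPM in wild type and 0.134 to 0.479 CPM in the knockout, and it was not called without knockout library 3 (edgeR adjusted p = 0.0618). The major chains did not pass: log2 differences were -0.09 for Col1a1 (SE 0.15), -0.34 for Col1a2 (SE 0.15) and -0.05 for Col3a1 (SE 0.12), with edgeR adjusted p values of 0.717, 0.103 and 0.808. Without wild-type library 3, Col1a2 passed, with a log2 difference of -0.47 and an edgeR adjusted p of 0.0196. The count ratio of Col1a1 to Col1a2, the chains that make up type I collagen, was 0.720 to 0.800 in wild type and 0.803 to 1.05 in the knockout.

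Col8a1, Col28a1, Col13a1 and Col10a1, of other classes, also passed, and none of 7 FACIT chains did (log2 differences from -1.10 to 0.12). Col8a1, a network-forming chain known from vessel walls, fell by 0.71 (SE 0.17, edgeR adjusted p = 0.00722). It had 6.70, 9.51, 8.03 and 6.63 CPM in wild type and 3.76, 4.97 and 5.16 CPM in the knockout. Beside it, 6 mural cell markers summed to 680 to 937 CPM in wild type and 625 to 673 CPM in the knockout, with 3 of 6 lower. Col28a1, known from peripheral nerve, fell by 0.85 (SE 0.25, edgeR adjusted p = 0.0219), from 9.60, 11.2, 14.5 and 8.65 CPM to 4.17, 5.003 and 8.68 CPM. The groups overlapped, since knockout library 4 lay just above wild-type library 4. Col28a1 was not called without knockout library 2 or 3, and its adjusted p reached 0.0939 over the alternatives.

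Of 7 Schwann cell markers, 6 were lower in the knockout. Their sum was 630 to 733 CPM in wild type and 336 to 485 CPM in the knockout. Among the knockout libraries, library 4 was highest in this sum and in Col28a1. Among the wild-type inguinal libraries, library 4 had the highest sum, 733 CPM, and the lowest Col28a1, 8.65 CPM. In wild-type brown fat the sum was 47.6 to 55.2 CPM and Col28a1 was 11.2 to 18.7 CPM. Col13a1, a transmembrane collagen known from neuromuscular junctions, had 1.66 to 2.29 CPM in wild type and 0.999 to 1.34 CPM in the knockout, a fall of 0.70 (SE 0.24, edgeR adjusted p = 0.0398). All 9 skeletal muscle markers were lower, with a sum of 114 to 320 CPM in wild type and 30.8 to 35.5 CPM in the knockout. Wild-type inguinal library 1 had the lowest muscle sum, 114 CPM, and the highest Col13a1, 2.29 CPM, of its group. Wild-type brown fat had a muscle sum of 2897 to 4936 CPM and 0.547 to 1.27 CPM of Col13a1. Col10a1, known from hypertrophic cartilage and named after its values were seen, was at a low level, at 0.204 to 0.566 CPM and 0.665 to 1.04 CPM, and rose by 1.10 (SE 0.38, edgeR adjusted p = 0.0439). Over 13 alternatives Col13a1 was called in 3, with adjusted p up to 0.152, and among the left-out libraries it was called only without wild-type library 4. Col10a1 was called in 6 of 13, with adjusted p up to 0.172, and among the left-out libraries only without wild-type library 3 or knockout library 4. Of 7 cartilage markers, Matn1, Matn3, Cnmd and Hapln1 were under 1 CPM in every library. The part of these markers in the results was not tested.

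**Figure D2:**
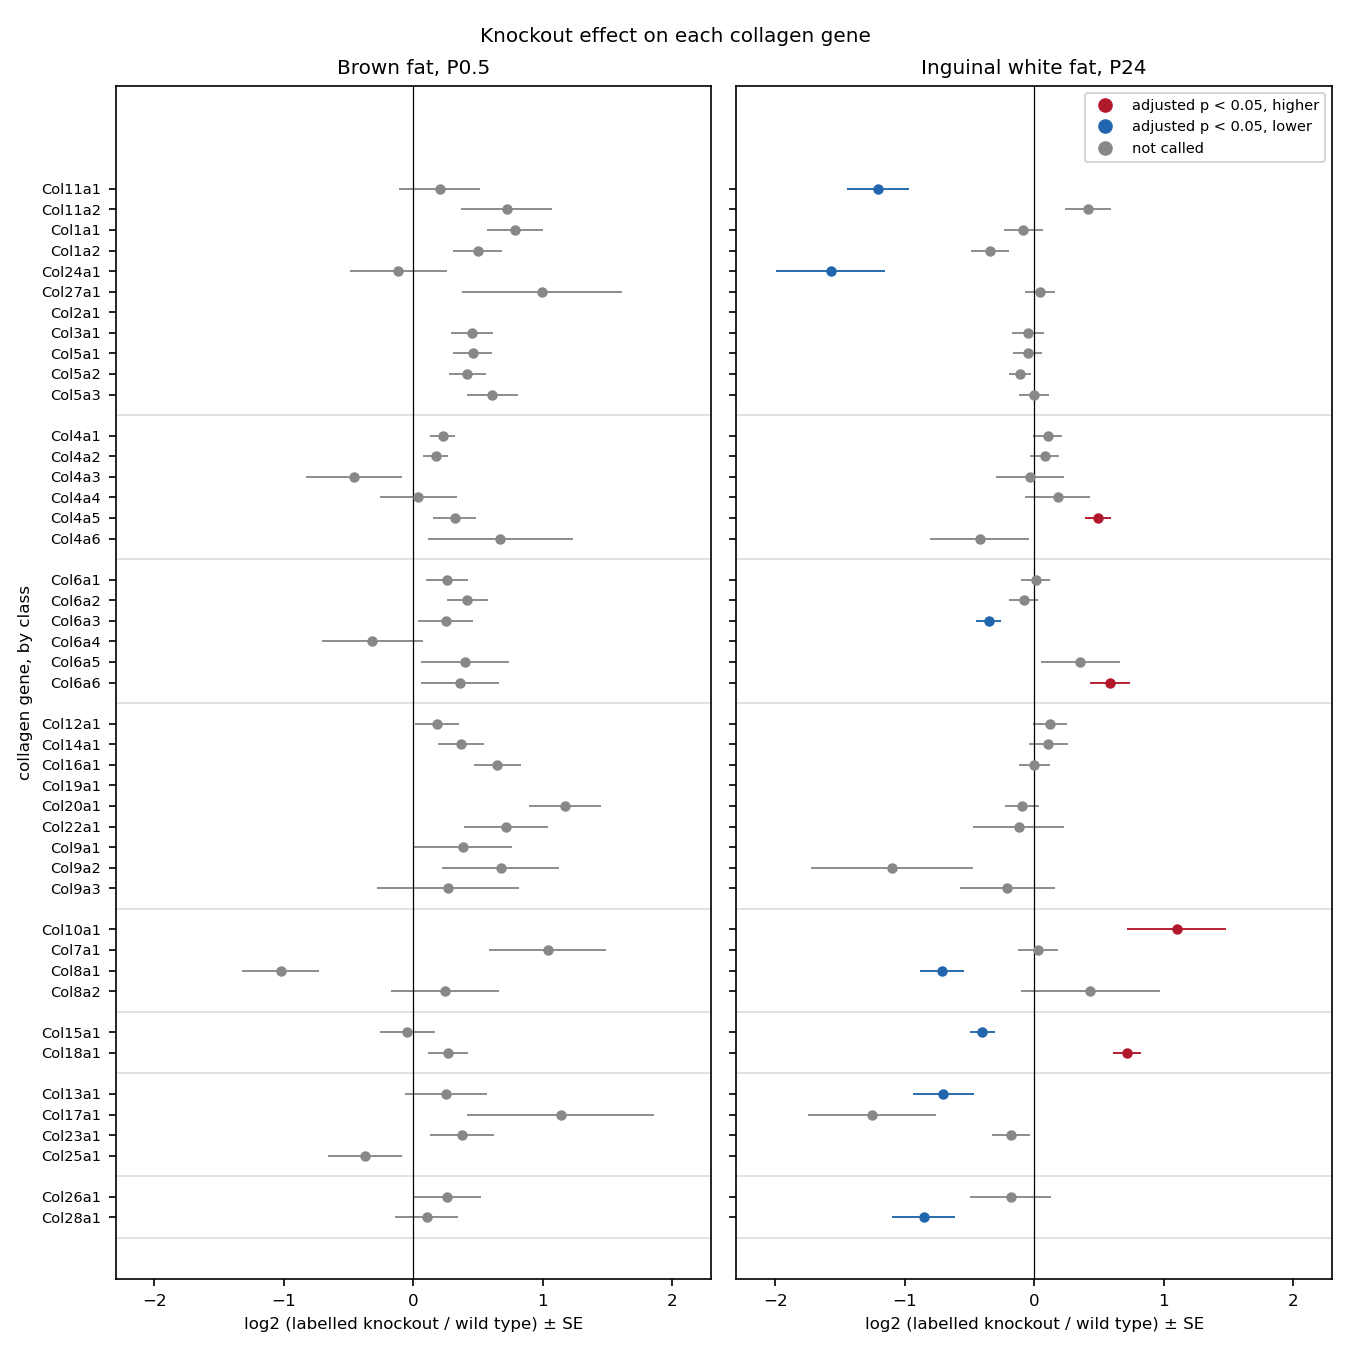
Log2 difference (labelled knockout over wild type) with SE for each collagen gene that passed the count filter, grouped by class, in brown fat at P0.5 (left, 41 genes) and inguinal white fat at P24 (right, 39 genes). Red and blue mark adjusted p below 0.05; none is marked in brown fat, where 35 of 41 points lie right of 0, and 11 are marked in inguinal fat.

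Other marker sets gave the setting of these calls in inguinal fat. Cell cycle genes were lower for 7 of 8, with a sum of 294 to 430 CPM in wild type and 224 to 254 CPM in the knockout. Of 9 fibroblast and progenitor markers, Thy1, Cd34 and Ly6a were lower and none was higher, and the sums overlapped at 842 to 1143 CPM and 817 to 930 CPM. Of 7 adipocyte markers, Ucp1, Plin1 and Cidea were higher. None of 5 macrophage markers passed, 2 of 5 B cell markers were lower, and of 7 epithelial markers 2 could be tested and Cdh1 was lower. None of the 2 cartilage markers that could be tested passed.

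Genes for proteins that build and handle collagen were called lower more often than higher in inguinal fat. Of 18 tested genes for chain modification and folding, 8 were lower and 0 higher (all genes tested, 13.3% lower and 15.3% higher), with a median log2 difference of -0.27. Plod2, the lysyl hydroxylase that prepares the ends of fibrillar chains for crosslinking, had 41.7, 45.9, 47.3 and 47.4 CPM in wild type and 13.3, 17.7 and 19.7 CPM in the knockout. It fell by 1.41 (SE 0.12, 2.66-fold, edgeR adjusted p = 3.76e-06). P4hb, a subunit of prolyl 4-hydroxylase, fell by 0.39 (edgeR adjusted p = 0.00730), Fkbp10, a folding enzyme of the endoplasmic reticulum, by 0.40 (0.00861) and Plod1, another lysyl hydroxylase, by 0.31 (0.0166). The other 4 that fell were Crtap, Serpinh1 (the collagen chaperone Hsp47), P3h3 and Fkbp14.

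Of 13 genes for procollagen processing and crosslinking, only Tll1, a procollagen-cutting protease, passed, at a fall of 0.74 (edgeR adjusted p = 0.00825). Of 13 fibril-associated proteins, 4 were lower. Dpt (dermatopontin) had 377 to 430 CPM in wild type and 193 to 229 CPM in the knockout, a fall of 0.95 (SE 0.09, edgeR adjusted p = 9.89e-06). Sparc, a collagen-binding matricellular protein, went from 4403 to 4956 CPM in wild type to 3122 to 3447 CPM in the knockout, a fall of 0.47 (edgeR adjusted p = 0.00325). Thbs2 and Lum, a thrombospondin and the proteoglycan lumican, fell by 0.31 (edgeR adjusted p = 0.0189) and 0.56 (edgeR adjusted p = 0.0293).

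Basement membrane partners split. Of 13 tested, Nid2, which links laminin to type IV collagen, fell by 0.54 (edgeR adjusted p = 0.000839), while the laminin chains Lamb3 and Lama3 rose by 0.97 (edgeR adjusted p = 0.00255) and 0.59 (edgeR adjusted p = 0.0140). Of 11 collagen receptors, Itga11, an integrin chain of fibroblasts, rose by 0.64 (edgeR adjusted p = 0.0144) and Mrc2, an endocytic collagen receptor, fell by 0.30 (edgeR adjusted p = 0.0322).

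In newborn brown fat, no collagen passed the edgeR test, and most members lay on the higher side in the labelled knockout. None of 41 tested was called, beside 0.260% of 15796 genes (0.184% higher, 0.0760% lower), and 12 had an unadjusted p below 0.05, where 2930 of the 15796 genes did; the smallest adjusted p was 0.0977, for Col20a1. The log2 difference was positive for 35 of 41 (85.4%), against 50.9% of all genes tested, and the median was 0.36, against 0.01. The genes were not independent, since they were measured in the same 8 libraries. Other tools gave more calls: DESeq2 called 4 members (all genes, 6.81%), limma-voom with library quality weights 8 (all genes, 19.8%) and a fit of all 4 groups 6 (all genes, 6.83%). Without labelled knockout library 1, edgeR called 3, Col11a2, Col16a1 and Col20a1, all higher, beside 18.1% of all genes.

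The major fibrillar chains had the same direction. Col1a1 measured 669, 859, 500.4 and 648 CPM in wild type and 1491, 763, 1121 and 1252 CPM in the labelled knockout. Labelled knockout library 2 lay below wild-type library 2, so the groups overlapped, and the log2 difference was 0.79 (SE 0.22, edgeR adjusted p = 0.128). It passed with DESeq2, limma-voom and the fit of all 4 groups, and leaving out 1 library at a time gave 0.64 to 0.94. Col1a2 and Col3a1 had log2 differences of 0.50 (SE 0.19, edgeR adjusted p = 0.205) and 0.46 (SE 0.16, edgeR adjusted p = 0.187). Col3a1 ranged from 1990 to 2946 CPM in wild type and from 2820 to 4216 CPM in the labelled knockout. The type V chains, which regulate fibril diameter, were similar in size: 0.46 for Col5a1, 0.42 for Col5a2 and 0.61 for Col5a3, with edgeR adjusted p values from 0.155 to 0.171. The Col1a1 to Col1a2 count ratio was 0.695 to 0.720 in the wild-type libraries and 0.740 to 0.968 in those of the labelled knockout, without overlap. Fibroblast and progenitor markers, 0 of 9 called, summed to 573 to 695 CPM and 617 to 751 CPM.

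Among type IV chains 5 of 6 tested, and among type VI chains 5 of 6, had a positive log2 difference. Col4a1 measured 1370, 1513, 1371 and 1508 CPM in wild type and 1711, 1519, 1772 and 1755 CPM in the labelled knockout. The groups did not overlap, and the log2 difference was 0.23 (SE 0.10, edgeR adjusted p = 0.242). Col4a2 had 0.17 (SE 0.10, edgeR adjusted p = 0.372), and the Col4a1 to Col4a2 ratio was 2.19 to 2.29 in the wild-type libraries and 2.26 to 2.38 in those of the labelled knockout. Col6a1 and Col6a2 had 0.26 (SE 0.16) and 0.42 (SE 0.16), with edgeR adjusted p values of 0.417 and 0.203. Library 1 of the labelled knockout was the highest of the 8 for each of Col1a1, Col1a2, Col3a1, Col5a1, Col5a2, Col5a3, Col6a1, Col6a2 and Col6a3.

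Col20a1, Col16a1 and Col8a1 were, beside Col1a1, the members with the smallest p. Col20a1, a FACIT of low abundance, had 5.94, 5.81, 4.66 and 5.31 CPM in wild type and 6.89, 9.45, 18.6 and 14.3 CPM in the labelled knockout, without overlap, at a log2 difference of 1.17 (SE 0.28). Col16a1, a FACIT found along fibrils and near basement membranes, had 13.3 to 19.2 CPM and 19.6 to 33.7 CPM, a difference of 0.65 (SE 0.18, edgeR adjusted p = 0.130). Col8a1 had 4.781, 4.769, 9.24 and 9.08 CPM in wild type and 3.59, 3.01, 4.76 and 2.37 CPM in the labelled knockout. The difference was -1.03 (SE 0.30, edgeR adjusted p = 0.138). Wild-type libraries 1 and 2 lay only just above labelled knockout library 3, so the gap between the groups was narrow. These 3 were named after their values were seen, as were Col5a1, Col5a2, Col5a3, Col6a2, Col27a1, Col7a1 and Col17a1 in brown fat.

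Col27a1, a fibrillar chain known from cartilage, varied widely between libraries. It had 119, 57.0, 141 and 168 CPM in wild type and 45.1, 353, 126 and 438 CPM in the labelled knockout, so that this group held both the lowest and the highest of the 8 libraries. The log2 difference was 0.99 with an SE of 0.62 (edgeR adjusted p = 0.418). In inguinal fat Col27a1 stayed between 26.7 and 36.3 CPM. Brown cartilage markers summed to 3.48 to 6.07 CPM, and 0 of 3 tested were called.

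Col17a1 and Col7a1, known from the junction of epidermis and dermis, were high in 1 library. Col17a1 had 0.706 to 1.84 CPM in 7 brown libraries and 9.31 CPM in labelled knockout library 4, and Col7a1 had 2.302 to 4.60 CPM and 13.0 CPM in that library. Without it, the log2 difference moved from 1.14 to -0.27 for Col17a1 and from 1.04 to 0.34 for Col7a1. The 7 epithelial markers summed to 91.3 CPM in that library, with Krt5 at 45.2 CPM and Krt14 at 19.3 CPM, and to 4.75 to 11.8 CPM in the other 7 brown libraries. Their part in the result was not tested. Over all members, leaving that library out moved the median log2 difference from 0.36 to 0.26 and the positive members from 35 to 31 of 41, and Col1a1 was then at 0.75. The median of 0.26 was the lowest with any 1 brown library left out, and 0.48, without wild-type library 2, was the highest. The part of single libraries in the median was not tested. Without labelled knockout library 1 the median was 0.27, with 32 of 42 positive. Without wild-type library 3 it was 0.27, with 35 of 42 positive.

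**Figure D3:**
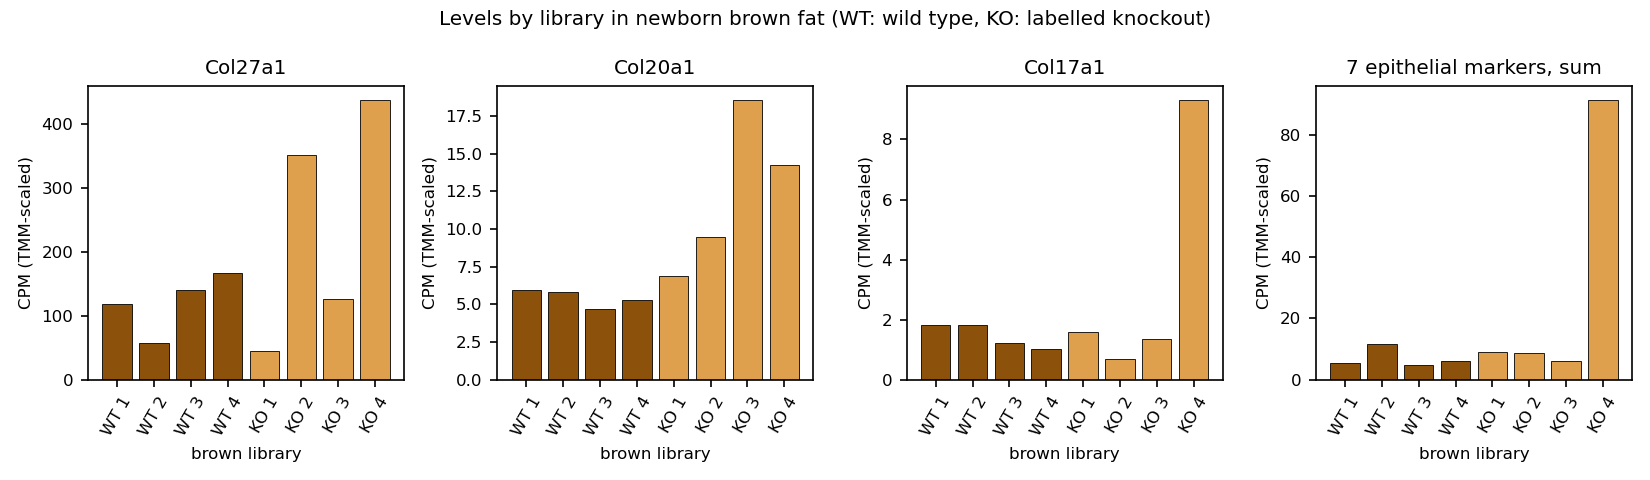
Level (CPM, TMM-scaled) of Col27a1, Col20a1, Col17a1 and the sum of 7 epithelial markers in each brown library, 4 wild-type and 4 labelled knockout. Bars start at 0; Col17a1 and the epithelial sum are high in labelled knockout library 4 (9.31 and 91.3 CPM), and Col27a1 is high in labelled knockout libraries 2 and 4.

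None of the 5 partner lists had a called gene in brown fat. The 18 modification and folding genes had log2 differences from 0.00 to 1.06, all positive, with a smallest edgeR adjusted p of 0.155. The median was 0.12 for them, 0.08 for 13 processing and crosslinking genes, 0.00 for 13 fibril-associated proteins, 0.21 for 14 basement membrane partners and 0.01 for 11 receptors. The smallest edgeR adjusted p in these lists was 0.0721, for Lamb2, the laminin beta2 chain, which measured 53.2 to 72.0 CPM in wild type and 84.3 to 127 CPM in the labelled knockout. Among the marker sets, 0 genes were called: endothelial markers summed to 1287 to 1604 CPM in wild type and 1214 to 1337 CPM in the labelled knockout, mural markers to 558 to 666 and 464 to 579 CPM, muscle markers to 2897 to 4936 and 2736 to 4877 CPM, Schwann markers to 47.6 to 55.2 and 41.1 to 53.98 CPM, macrophage markers to 164 to 206 and 162 to 189 CPM, B cell markers to 1.87 to 2.59 and 0.690 to 2.42 CPM, adipocyte markers to 14003 to 19193 and 11226 to 15221 CPM, and cell cycle genes to 65.2 to 216 and 84.9 to 272 CPM.

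The difference between the depots was tested directly, as the inguinal knockout effect minus the brown one. Of 43 members tested, 2 were called, both lower in inguinal fat relative to brown fat, against 9.0% of 16858 genes (4.80% higher, 4.20% lower). The median over the members was -0.53, beside -0.07 over all genes tested, and 9 of 43 were positive (20.9%, against 44.4% of all genes). The first called member, Col20a1, had a difference of -1.28 (SE 0.33, edgeR adjusted p = 0.0244), with overlapping inguinal groups at 6.98 to 8.26 CPM and 6.71 to 7.41 CPM. The second, Col11a1, had -1.43 (SE 0.43, edgeR adjusted p = 0.0495). In brown fat its groups overlapped at 3.46 to 7.88 CPM and 4.21 to 8.60 CPM.

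These 2 calls were not stable. With brown labelled knockout library 4 left out, or inguinal knockout library 2 or 3, no member passed, and with brown wild-type library 2 left out 7 did. Without inguinal wild-type library 3, the called members were Col1a1 and Col1a2, and Col11a1 was not called without any 1 of the 4 inguinal wild-type libraries or of brown wild-type libraries 1, 3 and 4. Among the major chains the difference was -0.89 for Col1a1 (SE 0.30, edgeR adjusted p = 0.0714), -0.86 for Col1a2 (SE 0.27, edgeR adjusted p = 0.0577) and -0.52 for Col3a1 (SE 0.22, edgeR adjusted p = 0.144). Col4a1, Col4a2 and Col6a1 had -0.14 (SE 0.14), -0.11 (SE 0.15) and -0.27 (SE 0.21). Col18a1 and Col15a1 had 0.43 (SE 0.21, edgeR adjusted p = 0.201) and -0.37 (SE 0.26, edgeR adjusted p = 0.380), so that a difference between depots was not shown for either.

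In the partner lists, 5 genes had a called difference, all lower in inguinal fat relative to brown, beside 9.0% of all genes called and 4.20% called lower, and nothing particular to these lists is read from that count: Plod2 (-1.54, edgeR adjusted p = 0.00310) and Plod1 (-0.52, edgeR adjusted p = 0.00872) among 18 modification genes, Dpt (-0.97, edgeR adjusted p = 0.00738) and Thbs2 (-0.71, edgeR adjusted p = 0.0142) among 13 fibril-associated genes, and Lamb2 (-0.83, edgeR adjusted p = 0.0183) among 14 basement membrane partners. Plod2 measured 16 to 23.5 CPM in wild-type brown fat and 14.4 to 27.7 CPM in the brown labelled knockout. None of 13 processing genes and 11 receptors was called.

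**Figure D4:**
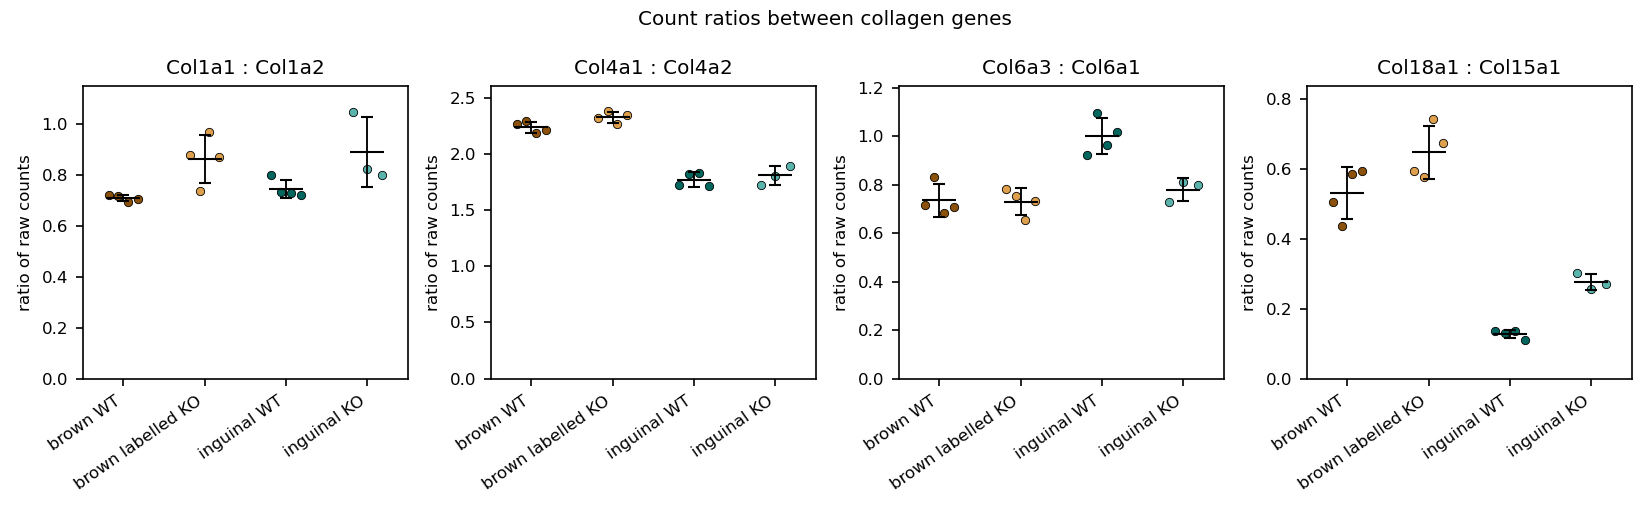
Ratio of raw counts for 4 pairs of collagen genes in each library (linear axes from 0; points are libraries, bars are group means and SD). The Col18a1 to Col15a1 ratio lies at 0.111 to 0.136 in wild-type and 0.255 to 0.302 in knockout inguinal fat, and the Col4a1 to Col4a2 ratio separates the tissues but not the genotypes. These pairs were chosen after the values of 9 such ratios were seen.

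Most collagens differed between the wild-type tissues. Comparing wild-type brown fat at P0.5 with wild-type inguinal fat at P24, 11 of 41 members tested were higher and 20 lower in brown fat (edgeR adjusted p below 0.05), against 61.4% of 15979 genes, of which 30.7% were higher and 30.7% lower. The median was -0.51, beside 0.01 over all genes. All collagens together took 0.846% ± 0.129 of the counts in wild-type brown fat and 1.78% ± 0.187 in wild-type inguinal fat (SD, n = 4 each). In the labelled knockout these shares were 1.11% ± 0.217 in brown fat (SD, n = 4) and 1.57% ± 0.0927 in inguinal fat (SD, n = 3).

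The fibrillar chains of types I, III and V were all lower in brown fat. Col1a1 was 3.01-fold, Col1a2 2.88-fold and Col3a1 2.40-fold higher in inguinal than in brown fat (edgeR adjusted p = 5.21e-05, 5.75e-05 and 1.16e-05). Col5a3, a type V chain expressed in fat and muscle, had the largest difference within type V. It had 56.0 to 104 CPM in brown and 643 to 768 CPM in inguinal libraries, an 8.85-fold difference (log2 -3.15, SE 0.18, edgeR adjusted p = 2.56e-07). Col5a1 and Col5a2 were 1.89-fold and 1.63-fold higher in inguinal fat (edgeR adjusted p = 5.18e-05 and 4.81e-05). The Col5a3 to Col5a1 count ratio was 0.328 to 0.429 in brown fat and 1.64 to 2.06 in inguinal fat. Among the 10 fibrillar chains tested, 4 had a log2 difference toward brown fat, and 2 of these were called. Col27a1 was 3.99-fold higher in brown fat (edgeR adjusted p = 0.000749) and Col11a1 had a log2 difference of 0.65 (SE 0.23, edgeR adjusted p = 0.0280), with overlapping groups. Col11a1 was called in 9 of 14 alternatives and not without brown library 2 or inguinal library 2, 3 or 4, with adjusted p up to 0.0836.

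Type IV chains differed less at high levels. Col4a1 had 1370 to 1513 CPM in brown and 1497 to 1887 CPM in inguinal fat, with overlap, at a log2 difference of -0.27 (SE 0.10, edgeR adjusted p = 0.0270), and leaving out 1 library at a time took the adjusted p up to 0.0785. Col4a2 was 605 to 683 CPM in brown and 874 to 1089 CPM in inguinal fat, without overlap, at -0.61 (SE 0.09, edgeR adjusted p = 8.66e-05). The ratio of the 2 chains was therefore 2.19 to 2.29 in brown and 1.71 to 1.83 in inguinal fat. Col4a5 was the only type IV chain that was higher in brown fat, at 28.4 to 31.3 CPM against 13.9 to 15.5 CPM (log2 1.01, SE 0.08, edgeR adjusted p = 6.09e-07). Col4a3, Col4a4 and Col4a6 were all lower in brown fat and reached at most 2.24 CPM in these libraries. Col4a1 overlaps Col4a2 in 0.3% of its exon bases. For Col4a2, 1.0% of the exon bases overlap Col4a1 or another gene, Gm15419, both on the opposite strand. Since no source used here gives the strand setting of the counting, reads there are uncertain.

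The multiplexins and type VI chains were lower in brown fat. Col15a1 had 85.1 to 159 CPM in brown and 617 to 718 CPM in inguinal fat, a 5.73-fold difference (edgeR adjusted p = 1.81e-06), and Col18a1 was 1.42-fold higher in inguinal fat (edgeR adjusted p = 0.00124). Col6a1, Col6a2 and Col6a3 were 1.79-fold, 2.39-fold and 2.40-fold higher in inguinal fat (edgeR adjusted p = 2.16e-05, 4.09e-06 and 8.82e-06). Col6a6 was higher in brown fat, at a log2 difference of 0.60 (SE 0.19, edgeR adjusted p = 0.0198), and the groups overlapped. Without brown library 1 it was not called, and over the alternatives its adjusted p reached 0.0765.

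Col12a1, a FACIT of dense connective tissue, tendon and muscle fascia, had the smallest p. It measured 116, 111, 121 and 122 CPM in wild-type brown fat and 11.3, 10.8, 9.73 and 9.59 CPM in wild-type inguinal fat, an 11.4-fold difference (log2 3.52, SE 0.07, edgeR adjusted p = 4.68e-11). Col14a1, the FACIT closest to it in structure, was not called, at 75.3 to 105 CPM and 70.6 to 126 CPM (log2 -0.16, SE 0.17). Col25a1, a transmembrane collagen known from motor innervation of muscle, had 1.18 to 1.87 CPM in brown fat and 0 to 0.291 CPM in inguinal fat, a log2 difference of 4.002 (SE 0.56, edgeR adjusted p = 7.21e-05). It was named after its values were seen. Beside both genes, the 9 skeletal muscle markers summed to 2897 to 4936 CPM in brown fat and 114 to 320 CPM in inguinal fat, with 8 of 9 higher in brown fat. In inguinal knockout fat this sum was 30.8 to 35.5 CPM. Col12a1 had a log2 difference of 0.12 between knockout and wild type there (SE 0.13, edgeR adjusted p = 0.524), and Col25a1 did not pass the count filter. The part of the muscle markers in the result was not tested.

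**Figure D5:**
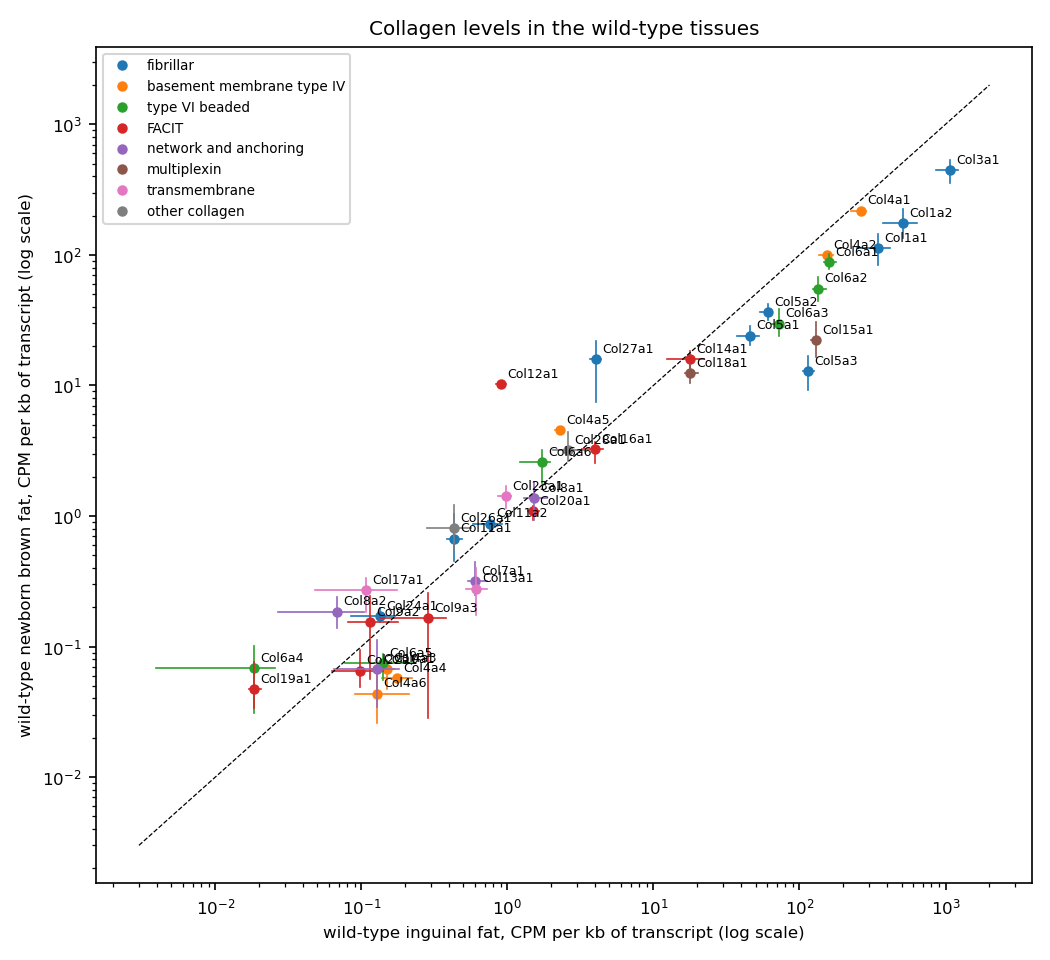
Mean level per kilobase of transcript (CPM per kb, log axes) of collagen genes with counts in all wild-type libraries, in inguinal fat at P24 (x) and brown fat at P0.5 (y), coloured by class. Crossed lines span the lowest to highest of 4 libraries per tissue, and the dashed line marks equal levels; most abundant chains lie below it, Col12a1, Col27a1 and Col4a5 above it.

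The partner lists are read against 30.7% of all genes lower and 30.7% higher in brown fat. Of 18 modification and folding genes, 13 were lower and 2 higher in brown fat (median -0.67): Serpinh1 by -1.94 (edgeR adjusted p = 5.24e-08), Plod3 by -1.26 (edgeR adjusted p = 1.22e-07), P4ha2 by -2.19 (edgeR adjusted p = 1.59e-07) and P4ha1 by -1.11 (edgeR adjusted p = 8.36e-07), hydroxylases apart from the chaperone. Of 13 processing and crosslinking genes, 11 were lower and 1, Lox, was higher. Pcolce, which enhances procollagen cleavage, had -1.42 (edgeR adjusted p = 5.30e-07). Fibril-associated proteins had 6 lower and 3 higher of 13, with Dpt at -2.17 (edgeR adjusted p = 2.56e-07) and Sparc at -1.36 (edgeR adjusted p = 3.94e-07). Basement membrane partners had 8 lower and 5 higher of 14: Hspg2 (perlecan) at -0.84 (edgeR adjusted p = 7.65e-06), Agrn (agrin) at 1.44 (edgeR adjusted p = 3.07e-05). Receptors had 7 lower and 1 higher of 11, with Ddr2, a receptor kinase for fibrillar collagen, at -0.82 (edgeR adjusted p = 1.39e-05) and Itga2, a collagen-binding integrin chain, at 2.07 (edgeR adjusted p = 3.27e-05). Fibroblast and progenitor markers were lower for 5 of 9 and higher for 1, endothelial markers were higher for 6 of 7, and mural markers were higher for 4 and lower for 2 of 6. The mural sum was nonetheless lower in brown fat, at 558 to 666 CPM against 680 to 937 CPM. Adipocyte markers were lower for 5 and higher for 2 of 7. Lower in brown fat were also 7 of 8 cell cycle genes, 7 of 7 Schwann, 5 of 5 B cell and 3 of 5 macrophage markers, with none higher. Of the epithelial markers tested, 1 of 4 was lower, and of the cartilage markers 2 of 3 were higher and 1 lower.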

How the data were processed

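Counts of reads per gene are the deposited values, whole numbers from poly(A)-selected, strand-marked libraries (per the labels' protocols). The authors aligned with TopHat2 2.1.0 to mm9 and counted with featureCounts of Subread, per the submitters' processing notes; the annotation and strand setting were not given in the sources used here. Symbols were matched to 32919 of 37991 identifiers. Each comparison was tested on its own groups (the difference of effects on all 4) with edgeR 4.0.16 in R 4.3.3: filterByExpr with a minimum count of 10, TMM, robust quasi-likelihood F-test, Benjamini-Hochberg adjustment over all genes, threshold 0.05. SE is the log2 difference over the square root of F. Levels are CPM with TMM factors over all 15 libraries; per-kilobase levels use the length of the principal GENCODE M21 transcript. Named with values by rule were Col1a1, Col1a2, Col3a1, Col4a1, Col4a2, Col6a1, up to 10 called members of smallest p reaching 1 CPM, and up to 4 per partner list. Other members given with values lay outside this rule and were picked with their values known. Members and lists were chosen with earlier results of these data known. Alternatives used DESeq2 1.42.0, limma 3.58.1, other scaling and filters, and left-out libraries. No libraries of a group agreed within sampling noise. On data simulated from the brown libraries the test recovered 10.4% of genes changed 1.5-fold and 46.3% of those changed 2-fold; for inguinal fat, 53.7% and 71.6%. A gene of the partner lists is not reported here and was left out of their counts.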

Additional observations from a re-analysis of the deposited data

Results flagged for a closer look

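In 4-library groups, the highest or lowest library was checked for standing apart from the others (Dixon's test, 95% level; 143 groups checked, 9 stood apart, where chance gives about 1 in 20). In the brown labelled knockout, high values were those of Col7a1 at 13.0 CPM and Col17a1 at 9.31 CPM in library 4, and of Col24a1 at 2.18 CPM and Col6a6 at 49.98 CPM in library 1. Col13a1 was low in library 1, at 0.681 CPM against 1.13 to 1.20 CPM in the others. The summed epithelial markers stood at 91.3 CPM in library 4, against 6.02 to 9.15 CPM in the other 3 labelled knockout libraries, and the Col5a3 to Col5a1 count ratio there was 0.459, against 0.419 to 0.426. In wild-type inguinal fat, Col6a2 was 605 CPM in library 1, against 489.5 to 504 CPM, and the Col6a1 to Col6a2 ratio was 1.32 in library 4, against 1.21 to 1.23.

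The knockout effect differed between the depots, by the edgeR interaction test, for Col20a1 (-1.28) and Col11a1 (-1.43) among the collagens, and for Plod1 (-0.52), Plod2 (-1.54), Dpt (-0.97), Thbs2 (-0.71) and Lamb2 (-0.83) among their partners. The 2 collagen calls depended on single libraries and on the tool: over 20 alternatives Col20a1 was called in 15 and Col11a1 in 9, and neither was called with the replicate block.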

How the results depend on the processing

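Over all genes, the brown comparison called 41 genes with edgeR, 67 with no filter on low counts, 1032 with DESeq2, 3127 with limma-voom and 1151 with all 4 groups in 1 fit, and 2 to 2905 when 1 library was left out. The inguinal comparison gave 2249 in the fit of all 4 groups instead of 4498, and 3274 to 4719 with 1 library left out. The difference of effects gave 2351 with DESeq2 and 3696 with limma-voom instead of 1517, and 632 to 3571 with 1 library left out; the wild-type comparison gave 9106 to 9950. Collagens called in brown fat were 4 with DESeq2, 8 with limma-voom and 6 in the fit of all 4 groups, and 0 to 3 with 1 library left out. In inguinal fat the fit of all 4 groups kept 3 of 11 (Col18a1, Col11a1 and Col24a1), and leaving out 1 library gave 6 to 12, with Col18a1, Col4a5, Col8a1, Col11a1 and Col15a1 called each time; 7 remained without knockout library 2 and 6 without knockout library 3. The difference of effects called 5 with DESeq2 and 10 with limma-voom, and 0 to 7 with 1 library left out; the wild-type comparison 28 to 31. The cause was not tested.

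The replicate numbers did not pair the libraries (correlations of deviations from -0.0992 to 0.224 in brown and -0.151 to 0.148 in inguinal fat). With the replicate block, 7 genes were called in brown fat, 859 in the difference of effects, and 0 collagens in the difference.

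Some values changed sign. With 1 library left out, the log2 difference ranged from -0.2747 to 1.4734 for Col17a1 and from -0.0294 to 0.4884 for Col11a1 in brown fat, the lowest without labelled knockout libraries 4 and 1. In inguinal fat the ranges were -0.2171 to 0.0097 for Col1a1, -0.1426 to 0.0112 for Col3a1, -0.0301 to 0.1599 for Col4a2 and -0.11 to 0.0984 for Col6a1, and between wild-type tissues -0.2901 to 0.0128 for Col8a1. Col6a1 in inguinal fat was -0.0415 with limma-voom and -0.0029 in the fit of all 4 groups.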
